A study of Homo sapiens with 12 samples.

Results

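The major histocompatibility complex (MHC) class I antigen presentation genes were followed here in 2 human prostate cancer cell lines after knockdown of the transcription factor FOXA1. The set was chosen by gene symbol and held 9 of the 60106 genes counted: HLA-B, HLA-C, HLA-E, HLA-F, B2M, TAP1, TAP2, TAPBP and NLRC5. All 9 had a row in every library. PC3, a line from a bone metastasis, and VCaP, a line from a vertebral metastasis, were transfected with an siRNA against FOXA1 (siFOXA1) or with a non-targeting siRNA (NSI), and RNA was taken after 72 hours. There were 3 libraries for each of the 4 groups. The PC3 groups received 20 nM siRNA in RPMI medium, and their libraries were made from polyadenylated RNA and counted without regard to strand. The VCaP groups received 40 nM siRNA in DMEM medium, and their libraries were made from total RNA and counted by strand. Cell line therefore cannot be told apart from dose, medium, library kit and strand counting. Both lines are single established lines, and a knockdown lowers a transcript without removing the gene. The labels do not say whether the 3 libraries of a group came from separate cultures, so p-values measure the spread between these libraries, which may be technical.

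MHC class I molecules display peptides from inside the cell to CD8+ T cells. Proteasomes cut proteins into peptides, the transporter made of TAP1 and TAP2 carries them into the endoplasmic reticulum, tapasin (TAPBP) holds empty class I molecules at the transporter, and a heavy chain paired with beta-2-microglobulin (B2M) takes the peptide to the surface. HLA-B and HLA-C are classical, highly variable heavy chains, while HLA-E and HLA-F are nonclassical chains that are also read by natural killer cells. NLRC5 is a transactivator that acts at class I promoters together with the RFX, CREB and NF-Y factors, and interferon induces most of these genes through IRF and other factors. Tumours, prostate cancer among them, often carry low class I levels.

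The PC3 libraries held between 123140099 and 188226483 counts, and the VCaP libraries between 48187047 and 59839211. FOXA1, the siRNA target, was at 301, 242 and 263 CPM (counts scaled to a common library size) in the PC3 NSI libraries and at 168, 183 and 167 CPM in the PC3 siFOXA1 libraries. VCaP held it at 448, 458 and 539 CPM in NSI and at 85.9, 73.7 and 83.5 CPM in siFOXA1. The groups did not overlap in either line, and the siFOXA1 mean was 0.642 of the NSI mean in PC3 and 0.168 in VCaP, so the knockdown was deeper in VCaP. Markers of the lines sat where the labels put them. The 3 VCaP markers KLK3, TMPRSS2 and ERG summed to 357 to 437 CPM in the VCaP libraries and to at most 0.442 CPM in PC3, while CAV1, CD44 and VIM summed to at least 1192 CPM in PC3 and at most 25.8 CPM in VCaP. In bulk RNA, fewer cells of a type and less RNA per cell cannot be told apart.

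Promoter sequence is shown for the members because 9 of 9 rose together in one line and not in the other. RefSeq promoter windows of GRCh38.p14 ran from 250 bases before to 50 bases after a gene's start. They were matched for 7 of the 9 members, in 8 windows, and HLA-E and NLRC5 were not matched. Motif counts of members below are per gene, and shares of all windows are per window. Positions count back from the base before the RefSeq start, which is −1. Each line below gives the strand the gene reads from, 5′ to 3′, with capitals for letters that match one of 4 short motifs on either strand.

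HLA-B, chr6:31357229-31357359, minus strand, −180 to −50: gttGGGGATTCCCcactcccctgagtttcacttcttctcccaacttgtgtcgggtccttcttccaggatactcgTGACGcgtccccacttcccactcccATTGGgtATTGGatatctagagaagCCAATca

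HLA-C, chr6:31272142-31272272, minus strand, −180 to −50: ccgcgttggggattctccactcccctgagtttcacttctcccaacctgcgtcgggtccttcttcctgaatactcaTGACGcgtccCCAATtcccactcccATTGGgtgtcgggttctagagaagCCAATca

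HLA-F, chr6:29723254-29723384, plus strand, −180 to −50: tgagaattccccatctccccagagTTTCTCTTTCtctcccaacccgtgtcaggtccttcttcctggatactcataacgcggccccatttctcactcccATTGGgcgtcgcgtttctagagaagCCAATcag

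B2M, chr15:44711367-44711477, plus strand, −150 to −40: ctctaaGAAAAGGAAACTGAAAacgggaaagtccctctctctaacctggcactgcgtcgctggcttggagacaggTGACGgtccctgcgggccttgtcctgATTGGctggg

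TAP1, chr6:32853804-32853854, minus strand, −150 to −100: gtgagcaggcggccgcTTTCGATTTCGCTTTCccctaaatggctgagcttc

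TAP2, chr6:32838759-32838819, minus strand, −80 to −20: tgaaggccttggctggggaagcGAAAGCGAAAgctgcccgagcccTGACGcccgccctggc

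TAPBP, chr6:33314079-33314138, minus strand, −60 to −1: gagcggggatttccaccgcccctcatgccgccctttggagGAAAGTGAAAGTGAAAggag

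A pair of GAAA blocks with any 2 bases between them, the core of the interferon-stimulated response element to which IRF factors bind, was found in 5 of the 7 matched members (HLA-F, B2M, TAP1, TAP2 and TAPBP) and in 3.57% of all 35116 promoter windows. B2M, TAP1 and TAPBP each held a pair of overlapping copies of it. TGACG, the core of the X2 box bound by CREB and ATF factors, was found in HLA-B, HLA-C, B2M and TAP2, and in 24.6% of all windows. CCAAT, the Y box bound by NF-Y, was found in HLA-B, HLA-C, HLA-F, B2M and TAP1, and in 34.6% of all windows. The TAP1 match lies at −249 to −245, outside the stretch printed. The 10 letters in capitals at −177 to −168 of HLA-B, a form of the site of NF-kappa-B, were found in HLA-B alone of the matched members and in 0.0769% of all windows. These are exact matches of letters in the reference and not measured binding. Near matches were not counted, so a member without a match may still hold a variant of the motif.

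The PC3 comparison asked how the class I genes respond when FOXA1 is lowered in that line. All 9 members were higher in siFOXA1 than in NSI by edgeR's quasi-likelihood test at an adjusted p under 0.05, against 15% of the 26435 genes tested that were called higher and 27% called in either direction. The median log2 fold change of the 9 was 1.90, with a range from 0.88 for TAPBP to 2.62 for NLRC5, beside a median of 0.018 over all genes tested. For each of the 9, every siFOXA1 library lay above every NSI library. The share of all genes that separate in this way was not computed, so nothing is read from that count. In VCaP, 8 members were tested, of which 2 rose (HLA-E and TAPBP), 4 fell (HLA-B, HLA-C, TAP1 and TAP2) and 2 were not called (B2M and NLRC5). Over all 22925 genes tested in VCaP, 45.8% were called, 22.5% higher and 23.3% lower. The median of those 8 was −0.12 beside 0.023 over all genes.

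**Figure D1:**
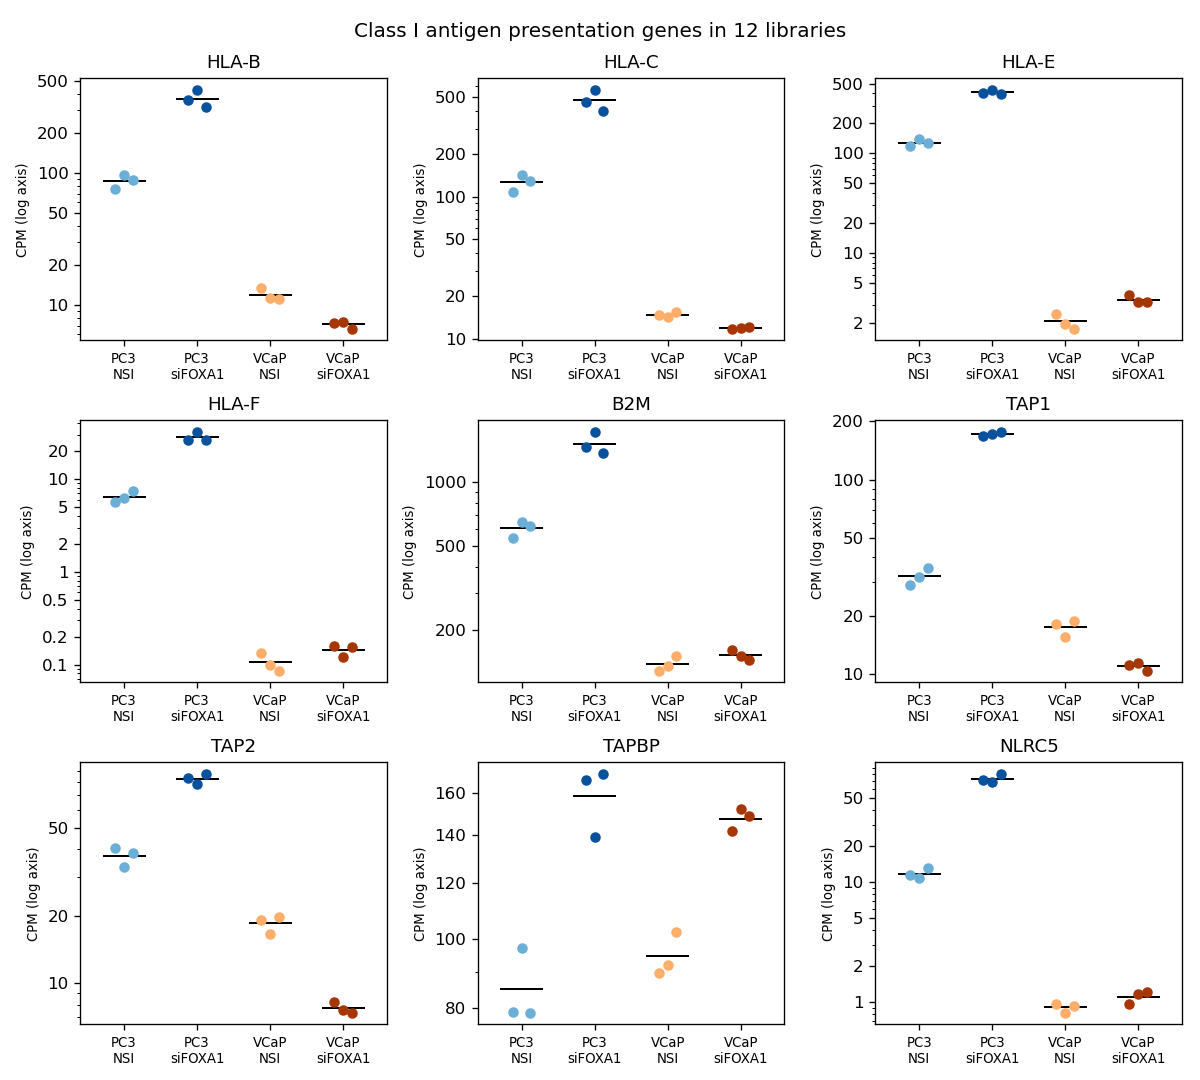
Level of each of the 9 class I genes in each of the 12 libraries, in CPM on a log axis, with 1 panel per gene, 1 point per library and a bar at each group mean. In PC3 the 3 siFOXA1 points lie above the 3 NSI points in all 9 panels, while in VCaP HLA-B, HLA-C, TAP1 and TAP2 lie lower in siFOXA1 and HLA-E and TAPBP higher.

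The classical heavy chains moved in opposite directions in the 2 lines. HLA-B (ENSG00000234745.10_2, GRCh37 chromosome 6, 31237268 to 31324964, minus strand) was at 75.3, 97.3 and 88.3 CPM in the PC3 NSI libraries and at 356, 424 and 319 CPM in siFOXA1. Its VCaP levels were 13.5, 11.4 and 11.1 CPM in NSI against 7.38, 7.47 and 6.66 CPM in siFOXA1. Neither pair of groups overlapped. The mean rose from 86.9 ± 11.1 to 366 ± 53.2 CPM in PC3 (SD, n = 3 each), 4.21 times the NSI level and a log2 change of 2.06 (SE 0.15, adjusted p 3.87e-05). The VCaP mean fell from 12.0 ± 1.31 to 7.17 ± 0.442 CPM, 0.599 of the NSI level and a log2 change of −0.77 (SE 0.10, adjusted p 0.000257). In the annotation 23.5% of the HLA-B exon bases lie opposite the exons of a pseudogene, and PC3 reads of the 2 strands cannot be told apart there. That pseudogene had 1584, 1853 and 2477 counts in PC3 NSI and 11240, 9314 and 7286 counts in PC3 siFOXA1, against at most 1.06 counts in any VCaP library, which were counted by strand. With the counts of overlapping genes added, the PC3 log2 fold change of HLA-B was 2.10 and stayed called.

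HLA-C (ENSG00000204525.16_2, chromosome 6, 31236526 to 31239863, minus strand) was the most abundant heavy chain of the set per kilobase in the control cells of both lines. It stood at 108, 143 and 129 CPM in PC3 NSI and at 466, 558 and 401 CPM in PC3 siFOXA1. For VCaP the values were 14.8, 14.4 and 15.4 CPM in NSI against 11.8, 12.0 and 12.1 CPM in siFOXA1. The groups were again separate in both lines, by a wide margin in PC3 and a narrow one in VCaP. The log2 fold change was 1.90 in PC3 (SE 0.16, adjusted p 8.68e-05) against −0.34 in VCaP (SE 0.068, adjusted p 0.00262). The VCaP call was lost when all 12 libraries shared one estimate of the spread (log2 fold change −0.31, adjusted p 0.0755). HLA-B and HLA-C are similar in sequence and share 33 exon bases in the annotation. Any fragment that mapped to both was divided between them, so the split of reads is uncertain.

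Of the nonclassical chains, HLA-E rose in both lines. HLA-E (ENSG00000204592.8_2, chromosome 6, 30457244 to 30461982, plus strand), which presents peptides cut from the leaders of other class I chains, was at 117, 138 and 127 CPM in PC3 NSI and at 402, 428 and 396 CPM in PC3 siFOXA1. In VCaP it was far lower, at 2.45, 1.95 and 1.74 CPM in NSI and at 3.74, 3.23 and 3.22 CPM in siFOXA1, from 331 and 517 counts in all. The siFOXA1 libraries were above the NSI libraries in both lines. The log2 fold change was 1.67 in PC3 (SE 0.10, adjusted p 1.52e-05) against 0.70 in VCaP (SE 0.15, adjusted p 0.00465). HLA-E was thus the one heavy chain of the 3 tested in VCaP that did not fall there.

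HLA-F (ENSG00000204642.13_3, chromosome 6, 29690552 to 29695073, plus strand), a chain that can reach the surface without peptide, was at 5.68, 6.25 and 7.41 CPM in PC3 NSI and at 26.1, 31.9 and 26.5 CPM in PC3 siFOXA1. Its log2 fold change in PC3 was 2.12 (SE 0.14, adjusted p 2.29e-05). In VCaP it was close to absent, with 17 counts over the 3 NSI libraries and 22 over the 3 siFOXA1 libraries, and it did not pass the filter on low counts. Without that filter its VCaP log2 fold change was 0.41 (SE 0.47, adjusted p 0.553), and no change was detectable at this depth. In the annotation 40.1% of the HLA-F exon bases lie opposite the exons of 2 pseudogenes, and the PC3 counts ignored strand, so reads of the 2 strands cannot be told apart in PC3.

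B2M, the light chain shared by all class I molecules (ENSG00000166710.17_2, chromosome 15, 45003675 to 45011075, plus strand), was the most abundant member in every group. It was at 545, 652 and 621 CPM in PC3 NSI and at 1468, 1725 and 1377 CPM in PC3 siFOXA1, with a wide gap between the groups. The VCaP libraries stood at 129, 135 and 150 CPM in NSI and at 162, 152 and 145 CPM in siFOXA1, and the groups overlapped. The log2 fold change was 1.32 in PC3 (SE 0.12, adjusted p 0.000171). In VCaP it was 0.11 (SE 0.074, adjusted p 0.244), with a 95% interval from −0.054 to 0.28. The VCaP interval leaves out any rise near the size seen in PC3.

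The peptide transporter showed opposite responses. TAP1 (ENSG00000168394.11_3, chromosome 6, 32812986 to 32821755, minus strand) was at 28.9, 31.6 and 35.4 CPM in PC3 NSI and at 169, 171 and 176 CPM in PC3 siFOXA1. VCaP held it at 18.2, 15.5 and 18.7 CPM in NSI and at 11.2, 11.4 and 10.5 CPM in siFOXA1. Both pairs of groups were separate, with the siFOXA1 libraries high in PC3 and low in VCaP. The mean in PC3 siFOXA1 was 5.38 times that in NSI, a log2 change of 2.42 (SE 0.10, adjusted p 2.32e-06), and the mean in VCaP siFOXA1 was 0.63 of that in NSI, a log2 change of −0.70 (SE 0.088, adjusted p 0.000171).

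TAP2, the other half-transporter (ENSG00000204267.13_4, chromosome 6, 32789610 to 32806557, minus strand), was at 40.6, 33.4 and 38.4 CPM in PC3 NSI and at 83.7, 79.1 and 87.0 CPM in PC3 siFOXA1. Its VCaP levels were 19.2, 16.7 and 19.8 CPM in NSI against 8.18, 7.59 and 7.37 CPM in siFOXA1. All 3 siFOXA1 libraries of VCaP were below the lowest NSI library, and this was the lowest fold change of the 8 members tested there. The log2 fold change was 1.14 in PC3 (SE 0.090, adjusted p 6.41e-05) against −1.30 in VCaP (SE 0.089, adjusted p 4.16e-06). In the annotation 33.4% of the TAP2 exon bases are shared with a readthrough gene on the same strand, and fragments there were divided between both.

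TAP1 and TAP2 stand in one stretch of chromosome 6 with the immunoproteasome subunits PSMB8 and PSMB9, which give proteasomes a cutting preference suited to class I peptides. The stretch from 32789610 to 32827362 on GRCh37, 37.8 kb, holds 5 genes that lie wholly inside it in the annotation used. The readthrough gene that shares exons with TAP2 does not lie wholly inside and is left out of these 5. All 5 were higher in PC3 siFOXA1, where 15% of all genes tested were called higher. The 4 that were tested in VCaP were all lower there, where 23.3% of all genes were called lower. The ends of the stretch were set by TAP2 and PSMB9. TAP1 and TAP2 are members and were already counted above, and PSMB8 and PSMB9 are counted again in the immunoproteasome list below. These counts are therefore no separate support, and nothing is read from them. PSMB8 was at 13.3, 18.7 and 15.8 CPM in PC3 NSI and at 61.3, 66.9 and 58.1 CPM in PC3 siFOXA1, with log2 fold changes of 1.95 in PC3 and −0.77 in VCaP. PSMB9 went from 4.46, 8.08 and 6.99 CPM to 40.9, 54.8 and 37.6 CPM in PC3, with log2 fold changes of 2.76 in PC3 and −0.85 in VCaP. The remaining gene is a long noncoding RNA whose exons lie opposite 15.4% of the TAP1 exon bases, and its reads in PC3 cannot be told apart from those of TAP1 there. The spans of PSMB8, PSMB9 and this RNA also overlap one another, and the exon bases they share were not computed.

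TAPBP, which encodes tapasin (ENSG00000231925.11_2, chromosome 6, 33267471 to 33282164, minus strand), rose in both lines. It was at 79.2, 97.2 and 79.0 CPM in PC3 NSI and at 167, 139 and 170 CPM in PC3 siFOXA1. For VCaP the values were 89.7, 91.9 and 102 CPM in NSI against 142, 152 and 149 CPM in siFOXA1. The NSI libraries of both lines lay in nearly the same range, and each siFOXA1 group lay above them. The log2 fold change was 0.88 in PC3 (SE 0.12, adjusted p 0.00129) against 0.61 in VCaP (SE 0.068, adjusted p 8.17e-05).

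NLRC5, the transactivator of the class I genes (ENSG00000140853.15_3, chromosome 16, 57023410 to 57117436, plus strand), had the highest fold change of the 9 members in PC3. It was at 11.4, 10.8 and 13.2 CPM in PC3 NSI and at 70.6, 68.8 and 79.2 CPM in PC3 siFOXA1, 6.17 times the NSI mean (log2 fold change 2.62, SE 0.11, adjusted p 1.98e-06). The VCaP libraries stood at 0.961, 0.820 and 0.931 CPM in NSI and at 0.960, 1.18 and 1.21 CPM in siFOXA1, from 147 and 170 counts in all. The VCaP groups overlapped, and the log2 fold change of 0.27 (SE 0.17, adjusted p 0.219) had a 95% interval from −0.11 to 0.65. Class I heavy chains HLA-B and HLA-C thus fell in VCaP while the NLRC5 transcript did not pass the test there.

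**Figure D2:**
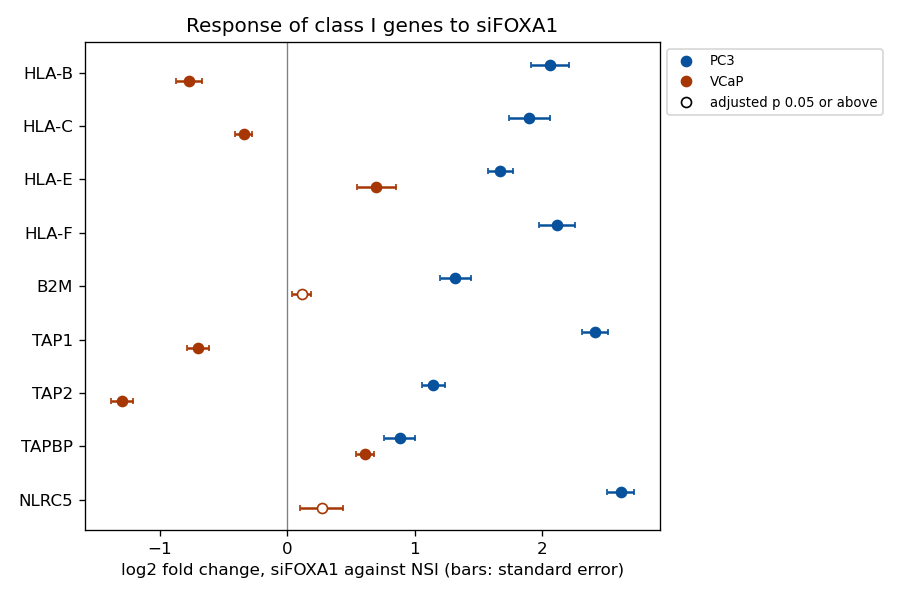
Log2 fold change of siFOXA1 against NSI for each class I gene in PC3 (blue) and VCaP (red), with bars of 1 standard error and open symbols where the adjusted p was 0.05 or above; HLA-F has no VCaP point because it did not pass the filter. All 9 PC3 points lie between 0.88 and 2.62, and the 8 VCaP points lie between −1.30 and 0.70.

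Whether the 2 lines responded differently was tested directly, as the VCaP effect minus the PC3 effect in a fit over all 12 libraries. Of the 8 members tested in both lines, 7 had a lower response in VCaP and 1, TAPBP, was not called, against 11% of the 30425 genes tested that were called lower and 22.2% called in either direction. The median difference of those 8 was −2.27 on the log2 scale, beside 0.051 over all genes tested. TAP1 differed by −3.10 (SE 0.14, adjusted p 1.42e-09), HLA-B by −2.81 (SE 0.18, adjusted p 4.38e-08) and NLRC5 by −2.33 (SE 0.19, adjusted p 4.26e-07). HLA-E, which rose in both lines, still rose less in VCaP, by −0.95 (SE 0.17, adjusted p 0.000638). TAPBP differed by −0.26 (SE 0.15, adjusted p 0.244), with a 95% interval from −0.57 to 0.055.

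The TAPBP difference was called when PC3 NSI replicate 2 was left out (−0.41, adjusted p 0.0440) or PC3 siFOXA1 replicate 2 (−0.43, adjusted p 0.0321). HLA-F entered this fit through its PC3 counts, and its difference of −1.67 (SE 0.42, adjusted p 0.00966) was lost without VCaP NSI replicate 1 (−1.48, adjusted p 0.0768). Over all genes the test gave 3427 higher and 3333 lower calls, and 2643 higher and 3880 lower with library size alone as scaling.

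In the control libraries most class I transcripts were at very different levels in the 2 lines, and line cannot be told apart from library kit here. Protein-coding genes made up 94.2% to 94.5% of the counts in PC3 NSI and 68.3% to 70.5% in VCaP NSI, so a share of the PC3 level also carries the make-up of the libraries. Of the 8 members tested in both lines, 7 were lower in VCaP NSI than in PC3 NSI and TAPBP was not called, against 44.2% of the 30425 genes tested that were called lower, 42.7% called higher and 86.9% called in either direction, so a call by itself says little here. The median difference of those 8 was −2.50 on the log2 scale, beside −0.033 over all genes, with the middle part of all genes, from the lower to the upper quartile, between −1.89 and 2.05. HLA-E was at 127 ± 10.5 CPM in PC3 NSI and 2.05 ± 0.364 CPM in VCaP NSI (SD, n = 3 each), 0.0161 of the PC3 level and a log2 difference of −5.96 (SE 0.13, adjusted p 3.69e-15). HLA-F, which passed the filter through PC3, was at 0.0163 of the PC3 level. NLRC5 was at 0.0766, HLA-C at 0.117, HLA-B at 0.138 and B2M at 0.228 of the PC3 level. The transporter differed less, with TAP1 at 0.546 and TAP2 at 0.496 of the PC3 level. TAPBP was at 1.11 times the PC3 level (log2 difference 0.15, SE 0.10, adjusted p 0.177, 95% interval −0.069 to 0.37).

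The order of the members was compared as CPM per kilobase of exon, a rough scale on which levels of different genes can be set side by side. The length is that of all annotated exon bases of a gene, such as 2388 for B2M and 6175 for TAP2. It is not the length of the transcripts present, so the order and the ratios between genes are approximate. In PC3 NSI the order was B2M (254), HLA-C (81.4), HLA-B (54.8), HLA-E (48.9), TAPBP (20.3), TAP1 (10.8), TAP2 (6.07), HLA-F (3.25) and NLRC5 (1.73), and of neighbours only HLA-B and HLA-E overlapped. In VCaP NSI it was B2M (57.9), TAPBP (22.6), HLA-C (9.56), HLA-B (7.55), TAP1 (5.90), TAP2 (3.01), HLA-E (0.787), NLRC5 (0.133) and HLA-F (0.0530), with every neighbour separate. TAPBP was thus above every heavy chain in VCaP and below HLA-B, HLA-C and HLA-E in PC3. After siFOXA1 in PC3, TAP1 (58.1) stood above TAPBP (37.8), the reverse of their order in NSI. After siFOXA1 in VCaP, HLA-E (1.31) and TAP2 (1.25) overlapped.

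**Figure D3:**
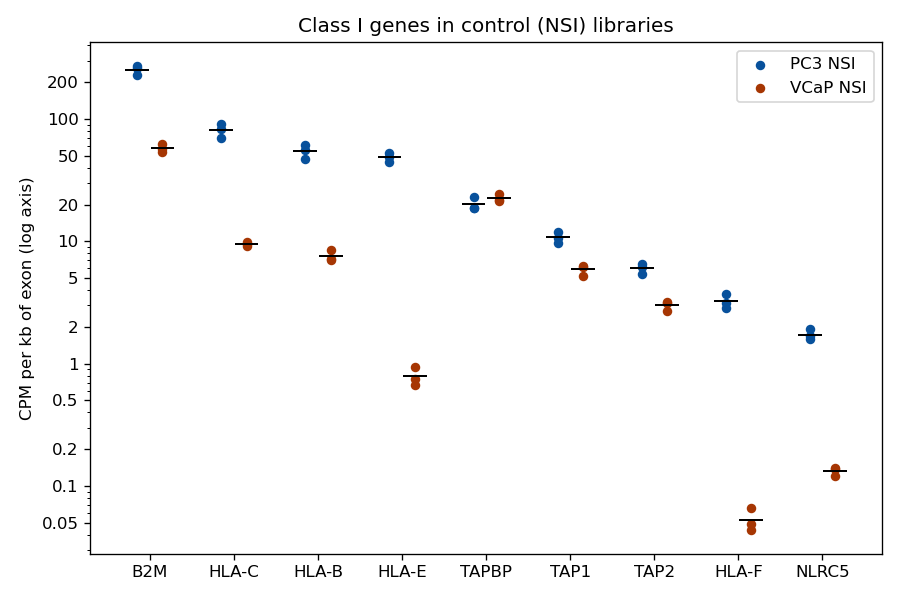
Level of each class I gene in the control (NSI) libraries of PC3 (blue) and VCaP (red), in CPM per kilobase of exon on a log axis, with 1 point per library and a bar at each mean, ordered by the PC3 mean. HLA-E lies at 48.9 in PC3 and 0.787 in VCaP, while the TAPBP points of both lines lie side by side at 20.3 and 22.6.

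The proportions of partner chains differed between NSI and siFOXA1 libraries. Per kilobase, B2M was at 1.38, 1.31 and 1.36 times the sum of HLA-B, HLA-C, HLA-E and HLA-F in PC3 NSI and at 0.889, 0.895 and 0.924 times in PC3 siFOXA1. VCaP held it at 2.85, 3.28 and 3.57 times in NSI and at 4.91, 4.63 and 4.56 times in siFOXA1. The ratio of light to heavy chain transcripts was thus lower after siFOXA1 in PC3 and higher in VCaP, without overlap in either line. TAP1 was at 1.49, 1.98 and 1.92 times TAP2 in PC3 NSI and at 4.21, 4.52 and 4.22 times in PC3 siFOXA1. In VCaP the ratio was 1.98, 1.94 and 1.97 in NSI and 2.85, 3.13 and 2.96 in siFOXA1. The TAP1 to TAP2 ratio was therefore higher after siFOXA1 in both lines, although both genes rose in PC3 and fell in VCaP. HLA-E made up 3.80% to 4.96% of the heavy chain sum in VCaP NSI and 9.05% to 10.4% in VCaP siFOXA1, against 25.3% to 27.2% and 20.4% to 24.4% in PC3. These ratios are descriptions and were not tested, and the heavy chain sum leaves out class I heavy chains outside the set. Their absolute size depends on the annotated exon lengths.

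The proteins that feed the transporter were read from lists of pathway genes. All 5 genes of the immunoproteasome and its PA28 activator (PSMB8, PSMB9, PSMB10, PSME1 and PSME2) rose in PC3, with a median log2 fold change of 1.37, where 27% of all genes tested were called. In VCaP, where 45.8% of all genes were called, 3 of the 5 fell (PSMB8, PSMB9 and PSME2), none rose and the median was −0.21. PSMB10, the third inducible catalytic subunit, had log2 fold changes of 1.37 in PC3 (adjusted p 0.00188) against 0.097 in VCaP (adjusted p 0.542). The constitutive catalytic subunits that these replace, PSMB5, PSMB6 and PSMB7, were not called in PC3 (−0.13, −0.090 and 0.048 on the log2 scale), and all 3 fell slightly in VCaP, by 0.20, 0.22 and 0.30.

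Of 6 genes of peptide trimming and loading, 4 rose in PC3 and 2 were not called, while in VCaP 3 rose, 1 fell and 2 were not called. Of all genes tested 27% were called in PC3 and 45.8% in VCaP. ERAP2, an endoplasmic reticulum aminopeptidase, was at 15.2, 13 and 13.4 CPM in PC3 NSI and at 37.9, 32.3 and 36.6 CPM in PC3 siFOXA1. In VCaP it went the other way, from 25.6, 27.6 and 26.9 CPM to 8.90, 8.004 and 8.79 CPM. Its log2 fold change was 1.35 in PC3 (adjusted p 3.71e-05) against −1.67 in VCaP (adjusted p 3.61e-07), opposite in sign like those of TAP1 and TAP2. Its relative ERAP1 rose in both lines, with log2 fold changes of 1.10 and 0.43, and so did TAPBPL, the tapasin-related peptide editor, with 1.60 and 0.29, and PDIA3, the disulphide isomerase bound to tapasin, with 0.30 and 0.26. The chaperones CALR and CANX were not called in either line, with log2 fold changes between −0.024 and 0.25. With the replicate numbers of PC3 as a block, CALR was called higher there (0.25, adjusted p 0.0244).

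**Figure D4:**
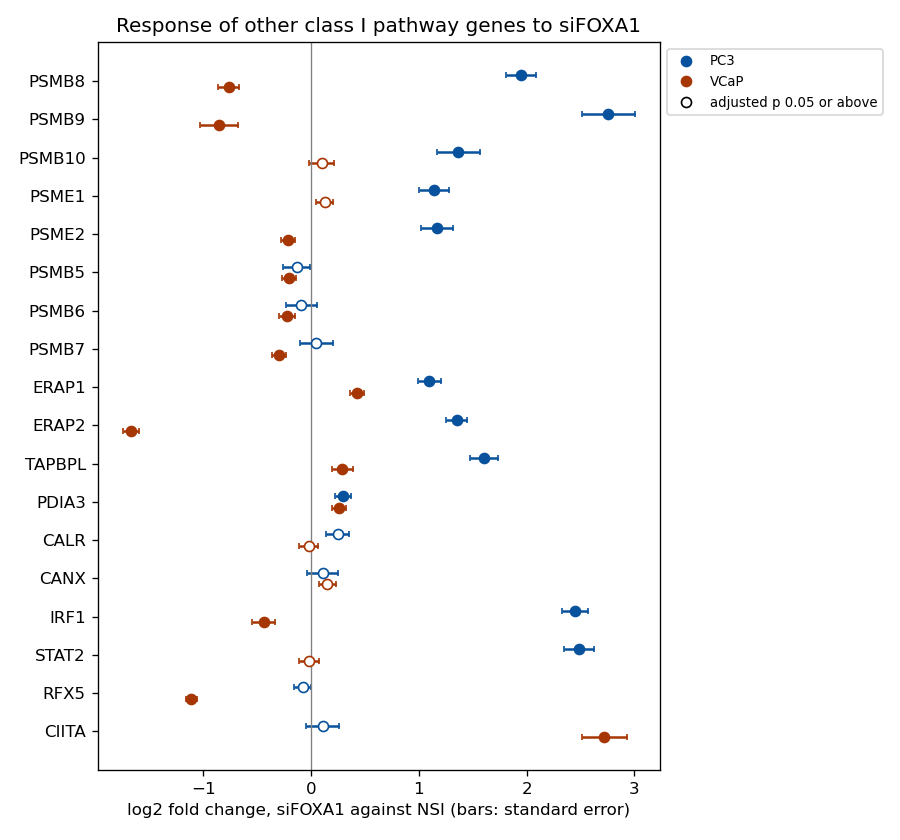
Log2 fold change of siFOXA1 against NSI in PC3 (blue) and VCaP (red) for 18 genes that act with the class I set, 1 gene per line from the proteasome at the top to the regulators at the bottom, with bars of 1 standard error and open symbols where the adjusted p was 0.05 or above. PSMB8, PSMB9, ERAP2 and IRF1 lie above 0 in PC3 and below 0 in VCaP, RFX5 lies near 0 in PC3 and at −1.11 in VCaP, and CIITA lies near 0 in PC3 and at 2.72 in VCaP.

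Among 14 regulators of class I and class II genes, 4 rose and 1 fell in PC3, and 5 rose and 3 fell in VCaP. These 5 and 8 called genes of 14 stand beside 27% and 45.8% of all genes, shares near enough that nothing is read from the counts. With the replicate block NFYC, a subunit of NF-Y, was also called lower in PC3 (−0.28, adjusted p 0.00478). STAT2, a transcription factor of interferon signalling, was at 63.2, 45.5 and 65.2 CPM in PC3 NSI and at 335, 297 and 350 CPM in PC3 siFOXA1. In VCaP the levels of STAT2 were 46.1, 41.6 and 37.1 CPM in NSI against 44.1, 43.5 and 38.2 CPM in siFOXA1. The PC3 groups were far apart and the VCaP groups overlapped, at log2 fold changes of 2.49 (adjusted p 1.09e-05) and −0.019 (adjusted p 0.888). The interferon regulatory factor IRF1 was at 18.0, 16.7 and 22.4 CPM in PC3 NSI and at 108, 103 and 103 CPM in PC3 siFOXA1, a rise of 2.45 on the log2 scale. IRF1 fell in VCaP by 0.44 on the log2 scale (adjusted p 0.00903). The other two regulators that rose in PC3 were IRF9 and IRF2, the latter named after its values were seen, and both also rose in VCaP, with log2 fold changes of 0.63 for IRF9 and 0.22 for IRF2. The regulator that fell in PC3 was NFKB1, a subunit of NF-kappa-B, also named after its values were seen. NFKB1 had log2 fold changes of −0.52 in PC3 (adjusted p 0.00296) against 0.49 in VCaP (adjusted p 0.000264), opposite in sign to those of IRF1, and the lines differed by 1.03 (adjusted p 1.05e-05).

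RFX5, the DNA-binding part of the RFX complex with which NLRC5 acts, responded differently in the 2 lines (difference −1.01 on the log2 scale, SE 0.096, adjusted p 2.34e-06). In PC3 it was at 57.7, 60.5 and 58.6 CPM in NSI and at 55.7, 55.3 and 57.9 CPM in siFOXA1 (log2 fold change −0.077, adjusted p 0.496). For VCaP the values were 43.7, 42.2 and 42.3 CPM in NSI against 20.1, 20.2 and 20.3 CPM in siFOXA1 (log2 fold change −1.11, adjusted p 6.55e-07). The VCaP libraries split cleanly into a high and a low group, and the PC3 libraries overlapped. CIITA, the class II counterpart of NLRC5, was at 4.37, 5.62 and 4.10 CPM in PC3 NSI and at 5.61, 4.77 and 4.91 CPM in PC3 siFOXA1, and at 0.170, 0.234 and 0.224 CPM in VCaP NSI and 1.32, 1.61 and 1.34 CPM in VCaP siFOXA1. It was not called in PC3 (log2 fold change 0.11, adjusted p 0.637) and was higher in VCaP siFOXA1 (log2 fold change 2.72, adjusted p 8.70e-06).

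Class II genes, which present peptides from outside the cell, were low in PC3. Of 11 on the list, 6 passed the filter in PC3, where 5 rose. With the replicate block HLA-DMA, the remaining one in PC3, was called higher too (0.85, adjusted p 0.0341). In VCaP 7 passed, of which 4 fell and 1 rose. Over all genes tested, 27% were called in PC3 (15% higher) and 45.8% in VCaP (22.5% higher and 23.3% lower). HLA-DRA, at 14 counts over the PC3 NSI libraries and 174 over siFOXA1, passed the PC3 filter through its siFOXA1 counts, as did HLA-DRB1. Genes kept in this way can hardly be called lower, so nothing is read from the PC3 count. CD74, the invariant chain, was at 0.135, 0.200 and 0.282 CPM in PC3 NSI and at 2.93, 2.83 and 2.69 CPM in PC3 siFOXA1. HLA-DRB1 was at 8.85, 6.79 and 8.26 CPM in VCaP NSI and at 1.80, 2.05 and 1.97 CPM in VCaP siFOXA1, a log2 change of −2.07 (adjusted p 2.61e-06). In PC3 it had 4 counts over the NSI libraries and 69 over the siFOXA1 libraries. HLA-DRB1 was 1 of the 4 class II genes that fell in VCaP. The 1 that rose was HLA-DQB1 (log2 fold change 0.87, adjusted p 0.0259), named after its values were seen, and CD74 was not called (0.0047, adjusted p 0.994). CIITA rose in VCaP from 34 counts over the NSI libraries to 217 over the siFOXA1 libraries, and its link to these genes was not tested.

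Markers of leukocytes, which carry class I and class II genes at high levels, were low in all libraries. The 6 leukocyte markers summed to 0.992 to 1.34 CPM in PC3 NSI and 1.14 to 1.67 CPM in PC3 siFOXA1, with MS4A1 listed at 0 in siFOXA1, while B2M alone was at 545 CPM or more in each PC3 library. PTPRC, present on nearly all leukocytes, was at 0.0239 ± 0.0259 CPM in PC3 NSI and 0.110 ± 0.0136 CPM in PC3 siFOXA1 (SD, n = 3 each). PTPRC was called higher in PC3 siFOXA1 (log2 fold change 2.20, adjusted p 0.0311), from 11 and 51 counts in all, and passed the filter through its siFOXA1 counts. CD14 was also called higher there (0.77, adjusted p 0.045). In VCaP the 6 leukocyte markers summed to 0.793 to 0.942 CPM in NSI and 2.45 to 3.36 CPM in siFOXA1, with none of the 6 listed at 0 in either group. Most of the VCaP sum was CD14, at 0.686 ± 0.0666 CPM in NSI and 2.74 ± 0.441 CPM in siFOXA1, a log2 change of 1.965 (adjusted p 2.07e-05). PTPRC went the other way in VCaP, from 18 counts over the NSI libraries to 3 over the siFOXA1 libraries (0.111 and 0.0197 CPM), below the filter and not tested. The 4 fibroblast markers summed to 23.6 to 27.8 CPM in PC3 NSI and 41.5 to 46.4 CPM in PC3 siFOXA1. The collagen genes COL1A1 (20.8 ± 1.62 to 32.1 ± 1.87 CPM) and COL1A2 (3.53 ± 0.571 to 10.8 ± 0.654 CPM) rose. PDGFRB, a growth factor receptor of fibroblasts and pericytes, fell by 0.63 on the log2 scale (adjusted p 0.0437), and DCN had 2 and 5 counts over the NSI and siFOXA1 libraries. The part of the leukocyte and fibroblast markers in the class I rise was not tested. The endothelial markers CDH5 and VWF summed to at most 0.297 CPM in PC3 and to 1.70 to 4.47 CPM in VCaP.

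Pseudogenes of class I heavy chains also rose in PC3. Of 9 on the list, 8 passed the filter in PC3, where 5 rose and 3 were not called, and 1 passed in VCaP, where it was not called. Over all genes tested, 15% were called higher in PC3 and 27% in either direction, and 45.8% were called in VCaP. With the replicate block HLA-W was called higher in PC3 too (0.60, adjusted p 0.00956). HLA-H was at 32.8, 39.4 and 40.4 CPM in PC3 NSI and at 75.8, 104 and 64.3 CPM in PC3 siFOXA1, a log2 change of 1.11 (adjusted p 0.00311). These genes are related in sequence to the heavy chains, to unlike extents. Where fragments map to more than 1 of them, dividing the fragments can carry a change from one gene to another, so the values are uncertain. Of 4 subunits of PRC2, a repressive chromatin complex that can silence class I genes, 2 fell in PC3 (EZH2 at −0.30 and SUZ12 at −0.57 on the log2 scale). In VCaP EZH2 fell (−0.59) and EED and MTF2 rose (0.31 and 0.17). The PRC2 calls stand beside 27% of all genes called in PC3 and 45.8% in VCaP, and nothing is read from their counts. Of 5 genes linked to class I turnover at the surface, 4 passed the filter in PC3 and none of them was called, at log2 fold changes from −0.14 to 0.24. With the replicate block SUSD6 was called higher in PC3 (0.24, adjusted p 0.0199). In VCaP MARCH4, SUSD6 and TMEM127 rose, with log2 fold changes of 1.02, 0.33 and 0.36, and WWP2 fell by 0.44. MARCH9, a ubiquitin ligase, was called in neither line (−0.13 in PC3 and −0.095 in VCaP). The turnover calls stand beside the same shares of all genes, 27% in PC3 and 45.8% in VCaP, so nothing is read from their counts either.

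Genes with the pattern most like the class I set were ranked by the root-mean-square difference over the 12 libraries between a gene and the median of the 9 members, each as log2 (CPM + 0.5) relative to the NSI mean of its line. The 5 nearest of 9863 candidate genes were LGALS3BP (0.136), IRF7 (0.141), BTN3A2 (0.152), PARP12 (0.177) and PML (0.206). LGALS3BP went from a mean of 326 to 1111 CPM in PC3 and from 42.3 to 44.9 CPM in VCaP. IRF7 went from 34.3 to 117 CPM in PC3 and from 11.3 to 10.6 CPM in VCaP. The libraries of a group share their line, kit and treatment, so this likeness is a description of 4 group levels more than of 12 independent points. The median of the members lay between 1.67 and 2.15 in the PC3 siFOXA1 libraries and between −0.046 and 0.070 in all VCaP libraries, although 4 members fell and 2 rose in VCaP. The ranking thus favours genes that rose in PC3 and stayed level in VCaP, which is not the pattern of most single members there.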

How the data were processed

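Gene-level RNA sequencing of 12 libraries was analysed from the deposited tables. The authors deposited estimated counts (expected counts) per gene, made with featureCounts on the GENCODE v28lift37 basic annotation of GRCh37, per the file headers, with fragments that mapped to several places or genes divided among them. PC3 counts ignored strand and VCaP counts were reverse-stranded, per the file headers. STAR 2.7.3a and Subread 2.0.0 are named in the submitters' processing notes. Here the counts were rounded to whole numbers, filtered with filterByExpr, scaled by TMM and tested with edgeR 4.0.16 (R 4.3.3, quasi-likelihood test, two-sided, Benjamini-Hochberg over all genes tested, call at an adjusted p under 0.05). The 6 libraries of a line formed one fit. The difference between lines and the NSI levels came from a fit of all 12. A standard error is the log2 fold change divided by the square root of F, and 95% intervals use the t distribution of the fit. CPM values use TMM factors over 12 libraries. The scripts were tested on simulated counts. Replicates of a group differed by more than sampling noise.

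The members and the gene lists were chosen with earlier results of these data known, so no p-value is given over a list. Some genes of the lists are not reported here, and counts and sums are over the others. Genes named were all members and FOXA1, every gene of a pathway list of 6 or fewer, up to 5 genes of a longer pathway list by smallest adjusted p in either line, and 5 genes of like pattern, drawn from those averaging 5 CPM or more in both lines. Marker lists were given mainly as sums. Titles number the replicates 1 to 3 in both conditions, but do not say what a shared number stands for. In PC3, NSI and siFOXA1 libraries of one number deviated together, with correlations across genes of 0.41, 0.56 and 0.20. Libraries of different numbers averaged −0.098, −0.39 and −0.049, so the numbers may stand for pairs. A PC3 fit with the numbers as a replicate block called 11297 genes, 5734 of them higher, against 7149 and 3955 without. Unless the block is named, the PC3 calls and the shares of 27% and 15% come from the fit without it. With the block the shares of all genes called are larger. Alternatives were other scalings, no filter, DESeq2 1.42.0, each library left out, no mitochondrial genes, one fit of 12 libraries, NSI libraries alone, protein-coding genes alone and, chosen after seeing the data, counts of overlapping genes added to the members.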

Additional observations from a re-analysis of the deposited data

Results flagged for a closer look

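The difference between the lines, the VCaP effect minus the PC3 effect on the log2 scale by edgeR's quasi-likelihood test over 12 libraries, passed an adjusted p of 0.05 for 7 class I genes tested in both lines. It was −2.81 for HLA-B, −2.22 for HLA-C, −0.95 for HLA-E, −1.19 for B2M, −3.10 for TAP1, −2.42 for TAP2 and −2.33 for NLRC5. HLA-F (−1.67) entered this fit through its PC3 counts alone, and its call was lost without VCaP NSI replicate 1 (adjusted p 0.0768). FOXA1 itself differed by −1.93, the deeper knockdown being in VCaP. Dose, kit and line cannot be told apart in these differences.

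Other genes of the pathway differed too. In the immunoproteasome and PA28 list the differences were −2.70 for PSMB8, −3.59 for PSMB9, −1.25 for PSMB10, −0.999 for PSME1 and −1.36 for PSME2. In trimming and loading they were −0.65 for ERAP1, −3.00 for ERAP2 and −1.29 for TAPBPL. Among regulators they were −2.87 for IRF1, −0.55 for IRF9, −2.48 for STAT2, −1.01 for RFX5 and 2.64 for CIITA. SUZ12 differed by 0.50, TMEM127 by 0.50 and the pseudogene HLA-H by −1.57. In class II they were −3.72 for CD74, −6.02 for HLA-DRB1, −4.69 for HLA-DPB1 and −3.78 for HLA-DMB. The PC3 NSI libraries held 4 counts of HLA-DRB1 and 2 each of HLA-DPB1 and HLA-DMB, so these 3 fitted values depend on the prior count and are no bounds.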

How the results depend on the processing

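Of 624 member values under alternatives, 616 kept their direction and their side of the threshold, 2 lost the call, 6 gained one and none reversed. The PC3 count of 7149 called genes moved to 11297 with the replicate block, which changed no member call and, of the pathway list genes, those of CALR, NFYC, SUSD6, HLA-W and HLA-DMA alone, all gained. It ranged from 3945 to 7592 when 1 library was left out, lowest without siFOXA1 replicate 1 (3945) and NSI replicate 3 (4602). In VCaP same-numbered libraries correlated at 0.092, 0.050 and 0.33, and those of different numbers averaged −0.020, −0.0099 and −0.20. Replicate 3 of VCaP thus deviated together too, and the pairing is not settled in either line. The block changed no member call in VCaP, while MTF2 lost its VCaP call (adjusted p 0.0508). In the NSI comparison TAPBP became 1 member called higher in VCaP with upper-quartile factors (0.46, adjusted p 0.000614), DESeq2's Wald test (0.23, adjusted p 0.0478) and protein-coding genes alone (0.38, adjusted p 0.00334). Leaving out 1 library gave 0 to 1 such calls, with 1 without PC3 NSI replicate 2 (0.25, adjusted p 0.0386). With protein-coding genes alone fewer genes were tested, and 14557 were called between the lines in place of 26438. Upper-quartile factors moved the median of all genes in that comparison by 0.30, to 0.27. Depth limits HLA-F in VCaP, at 17 and 22 counts. For the lost and gained calls of HLA-C, HLA-F and TAPBP given above, the cause was not tested.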
